A study of Homo sapiens with 8 samples.

Results

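The 10 genes described here encode parts of the smooth muscle contractile apparatus, and they were chosen by symbol from a table of 34415 genes. All 10 were found. They were ACTA2, TAGLN, CNN1, MYH11, SMTN, MYL9, MYLK, TPM1, TPM2 and CALD1. The cells were TeloHAEC, an immortalised endothelial line made from human aortic endothelial cells, labelled as wild type. By their titles, all 8 libraries came from cultures given palmitic acid, a saturated fatty acid used here to imitate an atherosclerosis-prone setting. Control libraries (n = 4) had no further addition named in the labels, and estradiol libraries (n = 4) came from cultures that also received estradiol, the main female sex hormone. The titles gave the groups, since the treatment field of the estradiol libraries names only palmitic acid. Doses, exposure times and a culture without palmitic acid were not among the labels, and the line is a single cell line. Nothing in the labels ties a replicate to its own culture, so p-values measure the spread between these libraries only, which may be technical.

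Smooth muscle contracts when calcium and calmodulin activate myosin light chain kinase, which phosphorylates the regulatory light chain of myosin II and lets it pull on actin filaments. Tropomyosins, caldesmon and calponin lie along those filaments and tune their use. Many non-muscle cells, endothelium included, run the same machinery on their own gene copies in stress fibres and cell junctions. For that reason the genes were separated into 5 markers of smooth muscle (ACTA2, TAGLN, CNN1, MYH11 and SMTN) and 5 general actomyosin genes (MYL9, MYLK, TPM1, TPM2 and CALD1). Several of the genes make both a muscle form and a widespread form, among them CALD1, TPM1, MYLK and SMTN, and values per gene do not separate the forms.

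Libraries held between 33421051 and 39899258 reads, recovered from the deposited values. Control replicate 3 and estradiol replicate 4 stood apart from the other 6 libraries on the first principal component, which held 68.7% of the variance of the genes tested. Estradiol replicate 2 had a summed level of 1500.1 FPKM over 1567 genes named as antisense transcripts, against 796 to 919 FPKM in the other libraries. FPKM is fragments per kilobase of transcript, scaled to each library's total. Endothelial markers were present. Of 12, 10 reached a mean of 1 FPKM, with CDH5, the endothelial cadherin, at 127 FPKM and TIE1, an endothelial receptor kinase, at 92.0 FPKM over the 8 libraries. Other endothelial markers were low: CLDN5, a tight junction protein, stood at 1.82 FPKM, and VWF (von Willebrand factor) and EMCN (endomucin) were under the filter at 0.296 and 0.280 FPKM. In bulk RNA, fewer cells of a type and less RNA per cell cannot be told apart.

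The markers of smooth muscle split into 3 that were readily measured and 2 that were close to the detection limit. ACTA2, TAGLN and SMTN had means over the 8 libraries of 11.8, 7.26 and 12.5 FPKM. MYH11, the smooth muscle myosin heavy chain, and CNN1, basic calponin of differentiated smooth muscle, had means of 0.0323 and 0.0134 FPKM. All 5 general actomyosin genes were measured, from 4.70 FPKM for MYLK to 34.6 FPKM for CALD1. Thus 8 of 10 genes passed the filter of a mean of 1 FPKM. None of the 8 passed the test between estradiol and control.

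**Figure D1:**
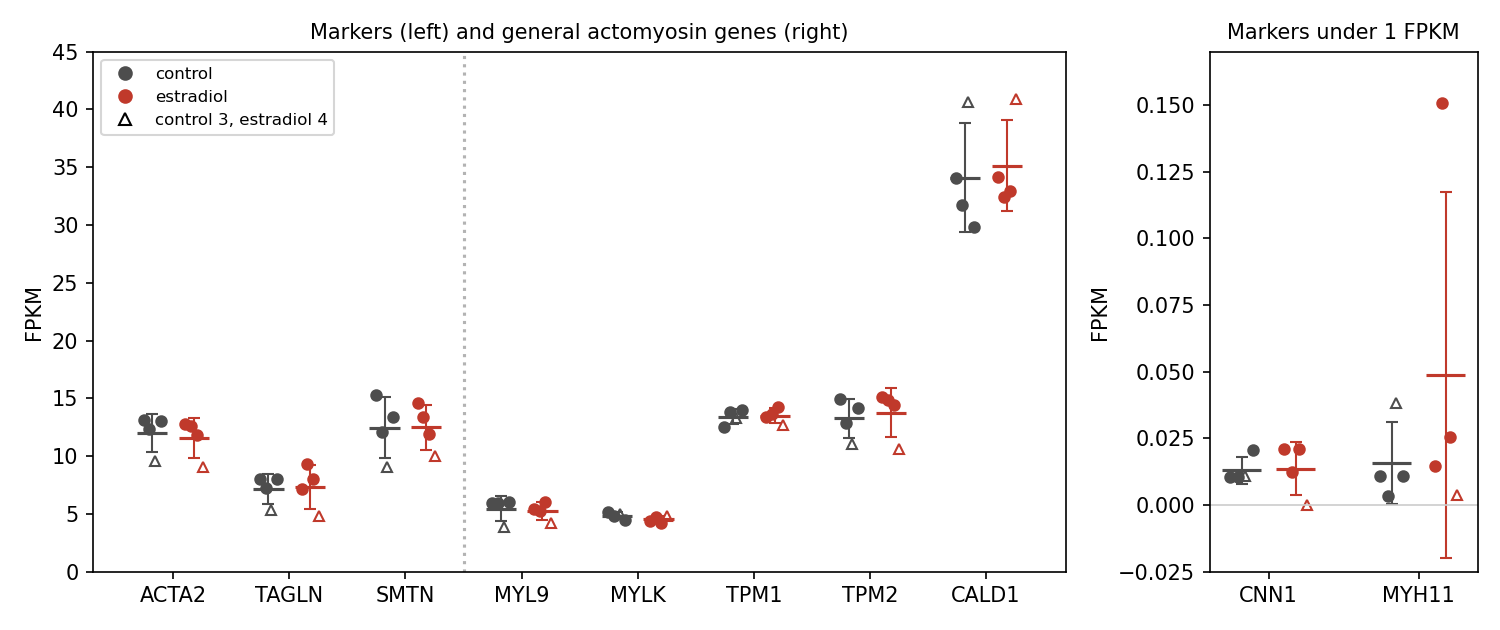
FPKM of the 10 genes in each library, with control in grey and estradiol in red; horizontal lines are group means, error bars are SD (n = 4), and triangles mark control replicate 3 and estradiol replicate 4. The groups overlapped for all 10 genes, and CNN1 and MYH11, on their own axis, stayed at or below 0.151 FPKM.

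ACTA2 encodes alpha smooth muscle actin, the actin most used to mark smooth muscle and myofibroblasts. It measured 13.2, 12.3, 9.61 and 13.03 FPKM in control replicates 1 to 4, and 12.8, 12.7, 11.9 and 9.11 FPKM in estradiol replicates 1 to 4. The groups overlapped, and the lowest library of each was the one that stood apart on the first component. The log2 fold change was -0.05 ± 0.13 (SE), with a 95% interval from -0.35 to 0.24 and an adjusted p of 0.999989 by limma. It rested on 639 to 940 reads per library.

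TAGLN encodes transgelin, also called SM22, an actin-binding protein made early in smooth muscle differentiation. Its levels were 8.03, 7.21, 5.35 and 8.07 FPKM in control and 7.13, 9.35, 8.07 and 4.83 FPKM in estradiol libraries. Estradiol replicate 2 was the highest and estradiol replicate 4 the lowest of all 8, so the estradiol group enclosed the control group. The log2 fold change was 0.01 ± 0.18 (SE), with a 95% interval from -0.39 to 0.42, the widest of the 8 tested genes. Without estradiol replicate 2 the log2 fold change was -0.099, and without control replicate 3 it was -0.10; neither passed.

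SMTN encodes smoothelin, a cytoskeletal protein of contractile smooth muscle. Its levels were 15.3, 12.1, 9.06 and 13.4 FPKM in control and 14.6, 13.4, 11.9 and 10.1 FPKM in estradiol libraries. The group means were nearly equal, at 12.5 ± 2.62 and 12.5 ± 1.95 FPKM (SD, n = 4 each). The log2 fold change was 0.01 ± 0.16 (SE), with a 95% interval from -0.34 to 0.37.

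CNN1 had 1, 1, 1 and 2 reads in control and 2, 1, 2 and 0 reads in estradiol libraries. That is 5 reads per group, or 0.0132 FPKM in pooled control libraries (exact 95% Poisson interval 0.00429 to 0.0308) and 0.0137 FPKM in pooled estradiol libraries (0.00445 to 0.0320). The 0 in estradiol replicate 4 allows up to 3 reads, which is 0.0320 FPKM. These limits cover counting error only. A difference in CNN1 was not detectable at this depth (exact two-sided permutation p = 0.857).

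MYH11 had 3, 1, 10 and 3 reads in control and 4, 35, 7 and 1 reads in estradiol libraries. Its mean of 0.0487 ± 0.0686 FPKM in estradiol against 0.0159 ± 0.0153 FPKM in control libraries (SD, n = 4 each) was set by estradiol replicate 2, at 0.151 FPKM. The exact permutation p was 0.543. Without that library, the pooled estradiol level was 0.0147 FPKM (exact 95% Poisson interval 0.00760 to 0.0257), against 0.0156 FPKM (0.00911 to 0.0250) in control. The difference of mean FPKM then changed sign, from 0.0327 to -0.0013.

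The library with the extra MYH11 reads was also the one richest in antisense transcripts. ACTA2-AS1, which lies opposite ACTA2, had 64 reads in estradiol replicate 2 and 0 to 13 in the other 7 libraries. TPM1-AS had 35 reads there and 5 to 18 elsewhere. MYLK-AS1 had 42 against 4 to 18, and MYLK-AS2 had 30 against 2 to 13. In the reference annotation, MYH11 exons share 765 bases with exons of NDE1 on the opposite strand. NDE1, a dynein regulator, had 1183 reads in that library and 1099 to 1597 in the others. Whether reads from NDE1 entered the MYH11 count was not tested. MYH11 exons also share 298 bases with AF001548.2 and 234 with AF001548.1, both on the opposite strand. Neither of these has a row in the deposited values, so their reads are not known. No source used here names the strand setting, so how reads in stretches shared with an opposite partner were assigned is not known. Counts of such partners did differ, with 0 reads for ACTA2-AS1 in estradiol replicate 4 beside 639 for ACTA2. The part of antisense reads in the MYH11 value was not tested.

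**Figure D2:**
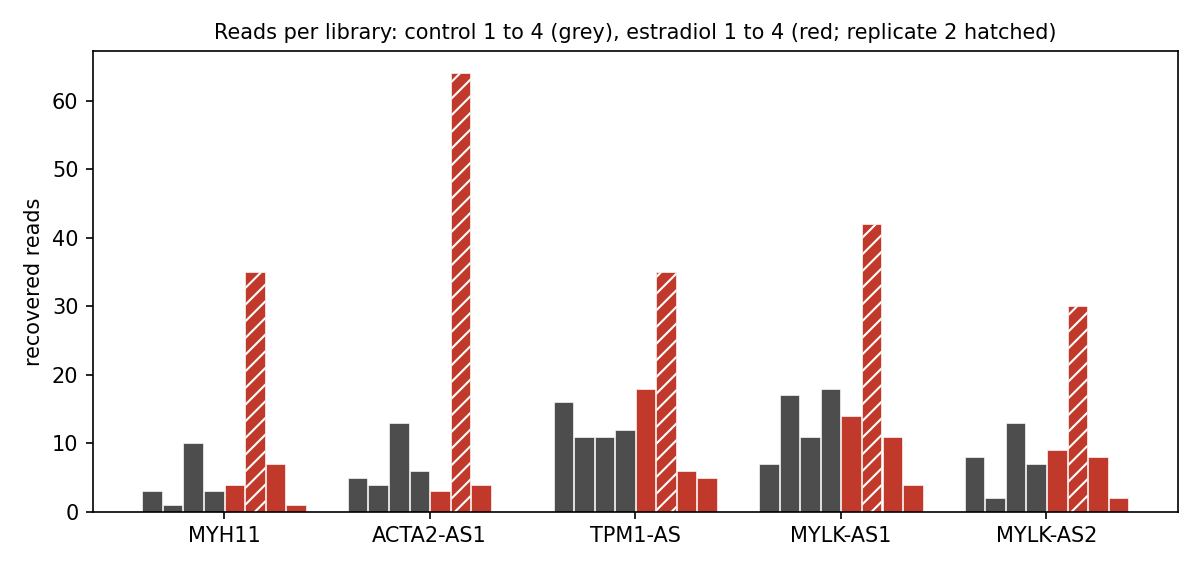
Recovered reads per library of MYH11 and of 4 antisense genes opposite other contractile genes; each cluster of bars shows control replicates 1 to 4, then estradiol replicates 1 to 4. Estradiol replicate 2 (hatched) was the highest library for each of the 5 genes, with 35 reads for MYH11 and 64 for ACTA2-AS1.

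Opposite partners also bear on the measured genes. In the reference annotation, ACTA2-AS1 exons covered 17.3% of the ACTA2 exon bases and those of FAS, a death receptor gene, 12.8%. FAS had 761 to 1411 reads per library, against 639 to 940 for ACTA2. TAGLN shared 11.4% of its exon bases with PCSK7, a proprotein convertase gene with 1407 to 2358 reads, against 798 to 1372 for TAGLN. Shares here are of the reference exon bases, 2976 for ACTA2 and 3917 for TAGLN. Lengths recovered from the deposited values were 1808 and 4260, so the shares of counted bases may differ. The levels of ACTA2 and TAGLN are uncertain to the extent that reads in these stretches were assigned to either gene. TPM1-AS exons covered 16.1% of the TPM1 exon bases, with 5 to 35 reads per library against 2885 to 3557 for TPM1. SMTN shared 3.49% of its exon bases with AC005005.3 on the opposite strand and 0.810% with AC005005.4 on its own strand. No gene with overlapping exons was annotated for CNN1, MYL9, TPM2 or CALD1, and overlaps within introns were not examined.

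Among the general actomyosin genes, CALD1 was the highest. It encodes caldesmon, which binds actin and tropomyosin and restrains myosin. Its levels were 34.1, 31.7, 40.7 and 29.9 FPKM in control and 34.2, 32.4, 32.9 and 40.9 FPKM in estradiol libraries. Here the 2 libraries that stood apart were the highest of their groups, the reverse of ACTA2. The log2 fold change was 0.05 ± 0.12 (SE), with a 95% interval from -0.22 to 0.31.

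The tropomyosins TPM1 and TPM2 encode coiled-coil proteins that run along actin filaments. TPM1 measured 12.6, 13.8, 13.3 and 14.0 FPKM in control and 13.4, 13.6, 14.3 and 12.7 FPKM in estradiol libraries. It was the steadiest of the 10 genes, with a coefficient of variation of 4.44% over the 8 libraries, against a median of 14.2% for all genes tested. TPM2 measured 14.9, 12.9, 11.1 and 14.2 FPKM in control and 15.1, 14.9, 14.5 and 10.7 FPKM in estradiol libraries. Their log2 fold changes were 0.01 ± 0.08 and 0.05 ± 0.13 (SE), with 95% intervals from -0.17 to 0.19 and from -0.25 to 0.34.

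MYL9 encodes a regulatory light chain of myosin II found in smooth muscle and in stress fibres. It measured 5.99, 5.96, 3.90 and 6.07 FPKM in control and 5.44, 5.24, 6.08 and 4.21 FPKM in estradiol libraries. The groups overlapped, and the lowest library of each was again control replicate 3 and estradiol replicate 4. Its log2 fold change was -0.05 ± 0.14 (SE), with a 95% interval from -0.36 to 0.27.

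MYLK encodes myosin light chain kinase, whose short smooth muscle form and long form in endothelium come from 1 gene. It measured 5.17, 4.81, 5.01 and 4.45 FPKM in control and 4.36, 4.72, 4.26 and 4.81 FPKM in estradiol libraries. This was the lowest log2 fold change of the 8 genes, at -0.08 ± 0.08 (SE), with a 95% interval from -0.26 to 0.10 and an adjusted p of 0.999989 by limma. The groups overlapped. The value was negative in each of the 18 alternatives that gave one, from -0.12 to -0.056, with a lowest unadjusted p of 0.158 by limma. These alternatives reuse the same libraries, so their shared sign adds no independent support.

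Set side by side, none of the tested genes passed at an adjusted p under 0.05 by limma, where the share over all 10720 genes tested was 0%. Before adjustment, 0 of the 8 had a p under 0.05, beside 26 genes or 0.243% of all tested. Groups that did not overlap were found for 0 of the 8, beside 57 genes or 0.532%. The log2 fold change was positive for 5 and negative for 3, with a median of 0.01, beside a median of -0.00047 for all genes. The 3 markers tested had values from -0.05 to 0.01 and the 5 actomyosin genes from -0.08 to 0.05. The 95% intervals lay between -0.39 and 0.42 on the log2(FPKM + 1) scale, which understates the change of the lower genes such as MYLK and MYL9.

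**Figure D3:**
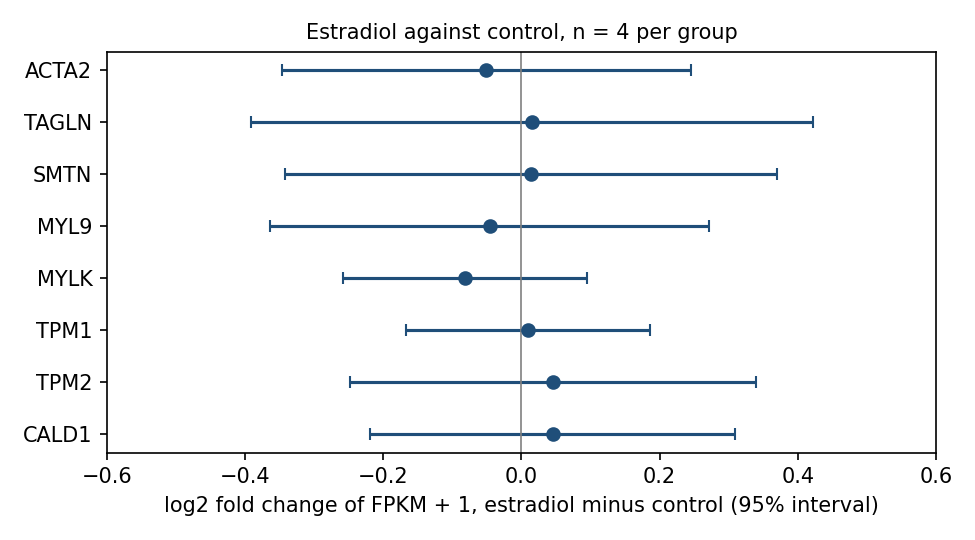
Log2 fold change of FPKM + 1, estradiol minus control, for the 8 genes that passed the filter; points are limma estimates and bars are 95% intervals (n = 4 libraries per group). Every interval included 0, and the point estimates ran from -0.08 for MYLK to 0.05 for TPM2 and CALD1.

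The larger variation of these genes was between libraries within a group. In both libraries that stood apart, ACTA2, TAGLN, SMTN, MYL9 and TPM2 were below all of the other 6 libraries, and CALD1 was above all 6. Over all tested genes, 43.9% lay below in that way and 34.6% above, beside 5 and 1 of these 8. The ratio of mean FPKM in that pair to the other 6 was 0.638 for TAGLN, 0.6998 for MYL9, 0.711 for SMTN, 0.741 for ACTA2 and 0.753 for TPM2. It was 0.954 for TPM1, 1.06 for MYLK and 1.254 for CALD1.

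This order did not follow the split into markers and actomyosin genes. TPM2 and MYL9 lay with the 3 markers, and TPM1, MYLK and CALD1 lay apart from them. GC content of the longest reference transcript was 51.8% for ACTA2, 57.2% for TAGLN, 59.4% for SMTN, 60.5% for MYL9 and 55.3% for TPM2. For the others it was 45.9% (TPM1), 48.6% (MYLK) and 41.6% (CALD1). Over all tested genes with a GC value, the median ratio went from 1.44 at a GC content of up to 40% to 0.709 above 60%. The part of GC content in these ratios was not tested, and the labels name no batch.

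**Figure D4:**
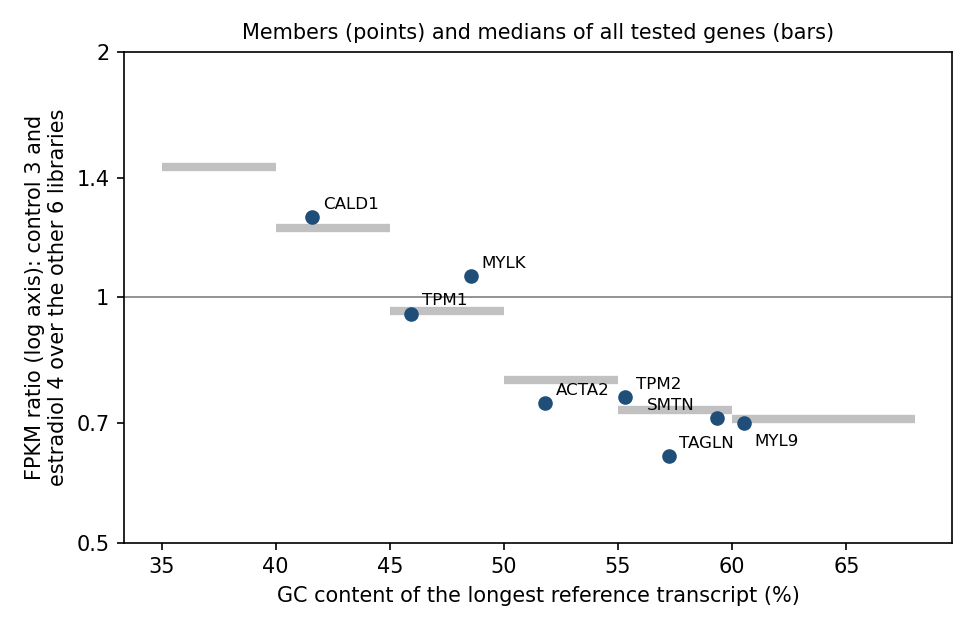
Ratio of mean FPKM in control replicate 3 and estradiol replicate 4 to the other 6 libraries (log axis) against GC content; points are the 8 measured genes and grey bars are medians of all tested genes in GC classes, the outer classes drawn to 35% and 68%. CALD1, at 41.6% GC, had a ratio of 1.254, and the 5 genes above 50% GC had ratios from 0.638 to 0.753.

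Without that pair, the spread of ACTA2 shrank from a coefficient of variation of 13.3% over 8 libraries to 3.77% over 6. The same values were 16.1% and 6.25% for MYL9, 13.2% and 5.63% for TPM2, and 11.7% and 4.96% for CALD1. ACTA2 then stood at 12.8 ± 0.437 FPKM in control and 12.4 ± 0.492 FPKM in estradiol libraries, and MYLK at 4.81 ± 0.360 and 4.45 ± 0.238 FPKM (SD, n = 3 each). The log2 difference between estradiol and control was -0.04 for ACTA2, 0.06 for TAGLN, -0.03 for SMTN and -0.09 for both MYL9 and MYLK within the 6 libraries. Within the pair, with 1 library per group and no test, it was -0.07, -0.12, 0.14, 0.09 and -0.05. For TPM1, TPM2 and CALD1 it was 0.03, 0.08 and 0.06 within the 6, and -0.06, -0.05 and 0.01 within the pair. Signs differed between the 2 sets for TAGLN, SMTN, MYL9, TPM1 and TPM2.

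By level, the order was CALD1, TPM2, TPM1, SMTN, ACTA2, TAGLN, MYL9, MYLK, MYH11 and CNN1. CALD1 was above TPM2 in 8 of 8 libraries with ranges that did not overlap, and so was MYLK above MYH11. ACTA2 was above TAGLN in 8 of 8 libraries, though their ranges over libraries touched, at a lowest 9.11 and a highest 9.35 FPKM. By recovered reads that order was reversed in every library, with 798 to 1372 reads for TAGLN and 639 to 940 for ACTA2. TPM2, TPM1, SMTN and ACTA2 were not separated beyond their spread. FPKM, and so any share of summed FPKM, depends on the gene length used. That length was recovered as 1808 bases for ACTA2, 4260 for TAGLN, 6330 for TPM1 and 11291 for MYLK.

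ACTA2, TAGLN, MYH11 and CNN1 were each a minor part of their protein families in these cells. ACTA2 made up 0.749% to 0.921% of the summed FPKM of 6 actin genes, most of which came from the cytoplasmic actins ACTB, at a mean of 755 FPKM, and ACTG1, at 649.7 FPKM. TAGLN made up 1.51% to 2.05% of the transgelins, with TAGLN2 at 398 FPKM. MYH11 was at most 0.0657% of 4 myosin II heavy chains, where the non-muscle chain MYH9 stood at 212 FPKM and MYH10 at 3.61 FPKM. CNN1 was at most 0.0559% of the calponins, with CNN2 at 18.8 and CNN3 at 20.03 FPKM. The groups overlapped in each of these shares.

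MYL9, TPM1 and TPM2 were also minor beside their relatives. MYL9 made up 0.529% to 0.980% of 3 regulatory light chains, with MYL12A at 368 and MYL12B at 297 FPKM. The lowest MYL9 shares, 0.529% and 0.534%, were in control replicate 3 and estradiol replicate 4. TPM1 and TPM2 made up 3.31% to 3.85% and 2.77% to 4.14% of the 4 tropomyosins, with TPM4 at 271 FPKM and TPM3 at 71.9 FPKM. MYL6, an essential light chain of myosin II, stood at 668 FPKM, and MYH14, the third non-muscle heavy chain, at 0 to 2 reads per library.

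**Figure D5:**
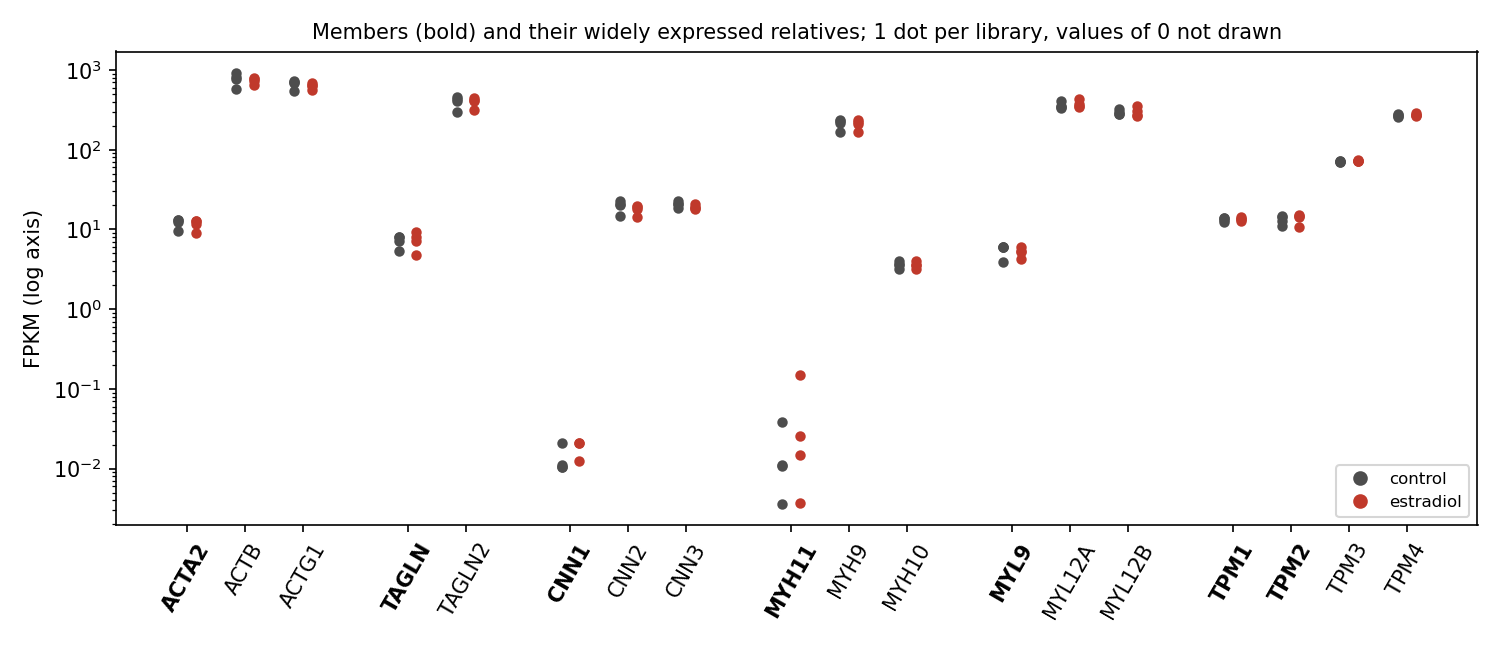
FPKM (log axis) of 7 contractile genes, in bold, beside their widely expressed relatives, with 1 dot per library in grey for control and red for estradiol. ACTA2, TAGLN, CNN1, MYH11 and MYL9 lay below their main relatives ACTB, TAGLN2, CNN3, MYH9 and MYL12A in every library.

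Of the 13 relatives, 12 were tested and 0 passed in either direction by limma, with 5 positive and 7 negative values and a median log2 fold change of -0.01. Groups did not overlap for 1 of the 12, TPM3, which measured 69.5 to 71.8 FPKM in control and 72.0 to 73.6 FPKM in estradiol libraries, beside 0.532% of all genes tested. The log2 fold change of TPM3 was 0.04 ± 0.07 (SE), at an adjusted p of 0.999989 by limma.

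Genes that mark differentiated smooth muscle beyond these 10 were largely undetected. DES (desmin), PLN (phospholamban), CASQ2 (calsequestrin) and the enteric actin ACTG2 were at 0 reads in all 8 libraries. LMOD1, an actin nucleator of smooth muscle, had 1 to 5 reads per library and KCNMB1, a potassium channel subunit, 0 to 2. Of 13 such genes, 4 were tested, among them the broadly expressed FLNA, VCL and SYNM. FLNA, the actin crosslinker filamin A, stood at 184 FPKM and VCL, the adhesion protein vinculin, at 27.5 FPKM. By limma 0 of the 4 passed, and the log2 fold changes of FLNA, VCL and SYNM were -0.01, 0.03 and -0.02.

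The factors that switch on contractile genes were partly present. SRF, which binds the CArG box, a short A/T-rich element in many of these promoters, stood at 12.0 FPKM. Its coactivator MYOCD, restricted to muscle, had 0 or 1 read per library, while the actin-sensing coactivators MRTFA and MRTFB stood at 6.41 and 1.28 FPKM. KLF4, a repressor of contractile genes in smooth muscle, stood at 16.7 FPKM and FHL1 at 56.6 FPKM. Of 10 genes in this list, 9 were tested and 0 passed by limma. Log2 fold changes ran from -0.09 (KLF4) to 0.04 (FHL1), with a median of 0.01.

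Promoters were searched for the CArG box because SRF acts through it. RefSeq promoters of build GRCh38.p14, from 250 bases before to 50 after the start, were matched for 7 of the 10 genes, with 15 promoters in all. TAGLN, MYL9 and MYH11 had no entry. Both strands were covered, since the box reads the same on each. An exact box was in 1 promoter each of SMTN and MYLK, beside 1.29% of all 35116 promoters. For MYLK that was the only promoter listed, and which of its forms starts there was not examined. A box with 1 G or C in its core was in 1 promoter each of ACTA2 and CALD1, beside 6.94% of all. ACTA2 had 2 such boxes, starting 121 and 71 bases before the start, at the downstream of its 2 listed starts. No match was found in the listed promoters of CNN1, TPM1 or TPM2, and TPM1 and TPM2 had means of 13.5 FPKM each. The matches describe the letters only.

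The promoters of ACTA2, SMTN and MYLK are shown for their boxes, in capitals, and that of CNN1, with no match in this window. They are chr10:88952724-88953023 (minus strand), chr22:31084746-31085045 (plus strand), chr3:123620499-123620798 (minus strand) and chr19:11538601-11538900 (plus strand), each printed 5′ to 3′ along its gene.
ACTA2: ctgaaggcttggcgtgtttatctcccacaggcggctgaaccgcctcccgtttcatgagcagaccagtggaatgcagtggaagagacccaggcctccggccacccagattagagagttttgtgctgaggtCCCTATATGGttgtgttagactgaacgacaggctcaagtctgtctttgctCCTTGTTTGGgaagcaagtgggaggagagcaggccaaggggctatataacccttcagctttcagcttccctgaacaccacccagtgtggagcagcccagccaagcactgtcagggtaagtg
SMTN: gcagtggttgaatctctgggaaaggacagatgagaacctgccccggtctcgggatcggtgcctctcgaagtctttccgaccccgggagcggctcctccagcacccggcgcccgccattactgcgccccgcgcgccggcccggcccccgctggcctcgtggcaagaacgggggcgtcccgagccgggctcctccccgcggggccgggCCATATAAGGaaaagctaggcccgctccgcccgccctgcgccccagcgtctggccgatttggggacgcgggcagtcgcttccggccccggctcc
MYLK: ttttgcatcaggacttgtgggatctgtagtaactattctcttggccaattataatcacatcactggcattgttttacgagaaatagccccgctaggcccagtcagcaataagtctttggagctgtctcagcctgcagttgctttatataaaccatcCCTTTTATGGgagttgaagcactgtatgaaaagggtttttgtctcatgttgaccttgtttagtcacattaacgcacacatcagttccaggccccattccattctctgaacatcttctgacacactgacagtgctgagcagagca
CNN1: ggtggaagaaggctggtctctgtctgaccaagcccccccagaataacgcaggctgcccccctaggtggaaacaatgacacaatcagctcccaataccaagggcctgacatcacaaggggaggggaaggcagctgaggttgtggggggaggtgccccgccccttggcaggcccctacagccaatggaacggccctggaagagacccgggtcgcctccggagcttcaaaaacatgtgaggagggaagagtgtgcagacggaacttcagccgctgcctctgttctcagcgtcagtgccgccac

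The genes that set light chain phosphorylation were well expressed. RHOA, a small GTPase that promotes contraction, stood at 283 FPKM, and CALM2 and CALM3, which encode calmodulin, at 73.1 and 94.1 FPKM. Of 15 genes, 14 were tested and 0 passed by limma, with 8 positive and 6 negative values between -0.04 and 0.06. In the pair that stood apart, genes of this list went both ways, as did 43.9% of all genes below and 34.6% above. ROCK1, a kinase that restrains myosin phosphatase, and PPP1CB, the catalytic subunit of that phosphatase, were 1.56 and 1.63 times as high there as in the other 6 libraries, while the ratio was 0.747 for CALM3, 0.717 for DAPK3, a light chain kinase, and 0.686 for ARHGEF1, an activator of RHOA.

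Most markers of other cells that carry contractile genes were low. Of 8 pericyte genes, 3 were tested: MCAM at 203 and ANPEP at 157 FPKM, which other cell types also make, and RGS5 at 14.4 FPKM. PDGFRB, the receptor that defines mural cells, had 6 to 24 reads per library, CSPG4 20 to 70, NOTCH3 5 to 13 and ABCC9 0 to 4, and KCNJ8 was at 0. The summed pericyte level, nearly all from MCAM and ANPEP, was 296 to 429 FPKM in control and 302 to 403 FPKM in estradiol libraries. Of 8 fibroblast genes only POSTN, a matricellular protein gene, was tested, at 258 FPKM. PDGFRA had 17 to 55 reads per library, COL1A1 5 to 17, COL1A2 6 to 12 and DCN 0 or 1, and LUM was at 0. COL3A1, a fibrillar collagen gene named after its values were seen, had 1, 5, 4 and 1 reads in control and 0 in each estradiol library, where a count of 0 allows up to 3 reads. Its exact two-sided permutation p of 0.0286 is the smallest the design can give and was not adjusted for the other genes examined. Since its values were seen first, that p decides nothing, and no difference is drawn from it. The share of genes under the filter whose groups do not overlap is not given here. The fibroblast sum, nearly all POSTN, was 216 to 325 FPKM in control and 222 to 356 FPKM in estradiol libraries. None of these tested genes passed by limma.

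The likeness of 2 profiles was measured as the root mean square difference of log2(FPKM + 1), each gene centred on its own mean, over 8 libraries and against 10719 other tested genes. Nearest to ACTA2 were HLA-B, LRRC32 and SND1, at 0.0134, 0.0176 and 0.0183. TAGLN was nearest to ATP5MF, ENDOG and DALRD3 (0.0575, 0.0588 and 0.0649) and MYL9 to RAB8A, USP21 and NLE1 (0.0306, 0.0307 and 0.0357). Counted from ACTA2, the nearest contractile gene was TPM2, at 0.0619 and rank 1114, and TAGLN stood at rank 4204. Ranks depend on the gene they are counted from. From TAGLN, TPM2 stood at rank 814 and ACTA2 at rank 951, and from MYL9, ACTA2 stood at rank 819. The measure counts the size of a dip as well as its pattern. All of these profiles share the dip in control replicate 3 and estradiol replicate 4. The measure selects genes that vary as ACTA2, TAGLN and MYL9 do, so this sharing follows from the choice. Joint regulation was not tested.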

How the data were processed

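RNA-seq of 8 libraries was used. The authors deposited FPKM values, 1 row per gene symbol and 1 column per library; fastp 0.20.1 and HTSeq are named in the submitters' processing notes, while no source used here names the aligner, build, annotation or strand setting. Reads were recovered from the steps of the FPKM values: all 152348 values above 0 came out whole within a relative tolerance of 1e-09. On simulated reads for 22615 genes of these libraries, 100.0% were recovered up to a common factor. Replicates of a group differed by more than sampling noise (chi-square per degree of freedom 8.35 to 164).

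limma 3.58.1 in R 4.3.3 was fitted to log2(FPKM + 1) with a mean-variance trend, two-sided, for 10720 genes with a mean of at least 1 FPKM, with Benjamini-Hochberg adjustment over all of them. Simulated data for estradiol against control (10720 genes, dispersion 0.01) gave 24% of genes changed 1.25-fold and 100% of those changed 1.5-fold, with 11 false calls. Those simulated libraries were independent and held no pair that stood apart, so these shares may overstate what the real libraries can detect. CNN1 and MYH11, under the filter, had exact two-sided permutation tests over 70 relabellings, whose smallest p is 0.0286. GC content (95.6% of tested genes) and overlaps came from GENCODE 29 by gene name. Python 3.11.15, pandas 2.3.3 and scipy 1.17.1 were used.

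The members and lists were chosen with earlier results of these data known. Named genes were the 10 members, all non-muscle relatives, up to 4 highest members of each other list with defining markers near 0, and 3 nearest profiles; other genes of these lists were named after their values were seen, and some listed genes are not reported here. Alternatives are listed with the closing limits.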

Additional observations from a re-analysis of the deposited data

Results flagged for a closer look

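With 4 libraries per group, 4 of 20 groups of values had a library far from its others by Dixon's criterion, which chance gives in about 1 group in 20. MYL9 was 3.90 FPKM in control replicate 3, against 5.96 to 6.07 FPKM in the other controls. TPM2 was 10.7 FPKM in estradiol replicate 4, against 14.5 to 15.1 FPKM. Both are the libraries that stood apart over all genes. MYH11 was 0.151 FPKM in estradiol replicate 2, from 35 reads, against 0.00371 to 0.0256 FPKM. CNN1 was 0.0207 FPKM in control replicate 4, which is 2 reads against 1 in each other control.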

How the results depend on the processing

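Alternatives were a pseudocount of 0.1, no filter, a filter at 5 FPKM, a common summed FPKM, quantile or median-of-ratios scaling, a fit with no trend, a replicate block, omission of single libraries, omission of (or a term for) the pair formed by control replicate 3 and estradiol replicate 4, and limma-voom on recovered reads. In all 19 fits 0 genes passed, also with the replicate block (0 genes). At an unadjusted p under 0.05 there were 4 to 437 genes, with 416 without the pair, 351 with a term for it and 11 with the replicate block. Same-numbered libraries correlated from -0.737 to 0.616 in their deviations, and 1 of 8 libraries correlated best with its own number, so the numbers were not used to pair.

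Signs changed only when libraries were left out, and no member passed in any fit. Leaving out 1 library moved the log2 fold change over -0.15 to 0.051 for ACTA2, -0.10 to 0.18 for TAGLN, -0.12 to 0.11 for SMTN, -0.18 to 0.038 for MYL9, -0.12 to -0.056 for MYLK, -0.019 to 0.037 for TPM1, -0.033 to 0.16 for TPM2 and -0.029 to 0.13 for CALD1. Without the pair SMTN was -0.027. The difference of mean FPKM ran from -0.00204 to 0.00498 for CNN1 and from -0.00129 to 0.0552 for MYH11. MYLK, under the filter at 5 FPKM, has no value there. With 33421051 to 39899258 reads, depth limits CNN1 and MYH11 only. Causes were not tested.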
